A study of Mus musculus with 8 samples.

Results

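Ribosomal proteins are the protein part of the ribosome, the particle that translates mRNA into protein. A small subunit binds the mRNA and decodes it, a large subunit joins the amino acids, and a lateral stalk on the large subunit recruits the translation factors. Their genes are expressed in every cell, neurons and glia included, and their mRNAs carry a pyrimidine tract at the 5′ end through which mTOR signaling controls their translation. The probes described here were all probes other than controls whose gene name in the scanner files was a ribosomal protein name (Rpl or Rps with a number, or Rpsa, Rplp0, Rplp1 or Rplp2). This rule took 182 of 56605 probes and 84 genes. It used names and no measured value. All 84 names were found in RefSeq, and each of the 145 probe accessions that RefSeq holds (of 182) carried the same symbol there.

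The series compared adult males of C57BL/6J (B6, 4 mice aged 4 months) with males of the inbred strain BTBRTF/ArtRbrc (BTBR/R, 4 mice, of which replicate 1 was aged 6 months and the others 4). BTBR is an inbred strain used as a mouse model for autism spectrum disorder, and the labels give no treatment for either group. Total RNA of dissected cerebral cortex plus striatum from each mouse was labeled with Cy3 and hybridized to 1-color Agilent arrays with 60-base probes. Signals are given on the log2 scale after subtraction of the array's own 75th percentile (scaled signal), and changes are BTBR/R minus B6. A probe counted as called when limma's moderated test gave an adjusted p below 0.05 over all 56605 probes together with a change of at least 2-fold.

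All 8 arrays lay on 1 slide, with the B6 arrays in slide column 1 and the BTBR/R arrays in slide column 2, so strain and column cannot be told apart. The lowest signal that counted as above background was 14.5 to 17.8 in B6 and 36.1 to 47.1 in BTBR/R, and 64.5% to 66.8% of probes were detected in B6 against 53.5% to 57.2% in BTBR/R. No spot was saturated. Cortical markers were detected on all 8 arrays with 8 of 8 probes and striatal markers with 13 of 13, and none of these 21 was called, although 3 cortical probes were higher and 2 striatal probes lower with an adjusted p below 0.05. Of detected probes for other cell types, 4 of 7 for astrocytes were lower by that measure and 0 higher, and of 9 for oligodendrocytes 3 were lower and 1, for the myelin gene Mbp, was higher (0.48, limma adjusted p = 0.00143). Of 5 endothelial probes 1, for Cldn5, was lower (-0.51). Of 6 microglial probes 1 for Cx3cr1 was called higher (1.71), another for it was lower (-0.71) and 1 for P2ry12 was higher (0.22). All 4 probes for red blood cell genes had lower signals in BTBR/R, with changes of -1.36 to -1.003 and 3 of them called. Whether these cell types or blood in the tissue had a part in any result below was not tested. In whole tissue, fewer cells of a type and less RNA per cell cannot be told apart.

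The exceptions named below rest on the following probes, which are printed because sister probes for the same gene gave other results. Sequences are those of the array design, positions are mm9, and capitals mark bases that differ between overlapping probes. The Rps3a1 probe A_55_P2722600 (chr3:85942007-85942438, minus strand) covers more of the genome than its own length and so crosses an exon junction, while its sister A_55_P2136385 lies at chr3:85943041-85943100, minus strand. The Rps2 probe A_55_P2070347 is placed at chr17:42864841-42864900, plus strand, and its sister A_55_P2048454 at chr17:24857583-24857642, plus strand. The Rps13 probe A_55_P2146749 (chr7:123475080-123475934, minus strand) also crosses a junction. It is shown with a probe that the array names by the Ensembl transcript ENSMUST00000117939 and places at chr11:61019238-61019297, minus strand. For Rps4l (chr6:148304018-148304077, plus strand), the first 30 bases of the probe are shown.
Rps3a1 A_55_P2722600: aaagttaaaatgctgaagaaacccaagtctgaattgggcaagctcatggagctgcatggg
Rps3a1 A_55_P2136385: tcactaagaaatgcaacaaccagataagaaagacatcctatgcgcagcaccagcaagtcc
Rps2 A_55_P2070347: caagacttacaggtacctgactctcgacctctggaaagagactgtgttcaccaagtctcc
Rps2 A_55_P2048454: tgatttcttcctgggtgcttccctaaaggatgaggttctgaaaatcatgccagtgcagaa
Rps13 A_55_P2146749: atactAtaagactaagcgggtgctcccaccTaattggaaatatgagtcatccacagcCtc
ENSMUST00000117939 A_55_P2176248: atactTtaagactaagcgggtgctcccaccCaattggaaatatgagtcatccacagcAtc
Rps4l A_51_P406105: tgaagtggactctgagggacattgcgggga

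The ribosomal protein probes were among the brightest on the arrays. Of the 182 probes, 170 for 80 genes were detected on all 8 arrays. Between 145 and 148 of the 182 lay above the 95th percentile of their array, and 57 to 64 lay above the 99th percentile, where each array had 566 or 567 probes in all. The median scaled signal of the 170 was 5.33, against -0.04 for all 28547 probes detected on all 8 arrays. The brightest were probes for Rpl41, a very short large subunit protein, at 7.58, for Rpl38 at 7.49 and for Rps18 at 7.44. The dimmest of the 170 were probes for Rps24 at -2.34, Rps15a at -2.18 and Rpl13 at -2.14, so that the probes of this gene family spanned a wide range of signal. Levels of different probes also depend on the probe itself and are not levels of the genes relative to each other.

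Most of these probes differed little between the strains. The median change of the 170 was -0.0054, the middle 50% lay between -0.068 and 0.041, and 157 (92.4%) changed by less than 0.25. Over all 28547 probes detected on all 8 arrays, 75.6% changed by less than 0.25. The median size of the change was 0.054 for the ribosomal protein probes and 0.12 for all detected probes, and the median SD between mice of a strain was 0.035 and 0.088. The median SD of other probes fell from 0.12 at scaled signals below 0 to 0.044 between 6 and 7 and was 0.057 above 7, and 65 of the 170 were the mean of 10 spots, a layout that only 300 probes of the array had. Among single-spot probes with a scaled signal of at least 4, the median SD was 0.037 for 75 ribosomal protein probes and 0.051 for 1932 other probes, and the median size of the change was 0.043 and 0.066. The gaps did not have 1 direction at every brightness. Between 0 and 2, the median SD was 0.082 for 6 ribosomal protein probes and 0.073 for other probes, and the median size of the change was 0.161 and 0.111. Both medians were also larger below 0 (10 ribosomal protein probes; SD 0.127 and 0.123, size 0.184 and 0.158), and above 7 the median size was 0.059 for 15 ribosomal protein probes and 0.055 for other probes. These values are descriptions without a test.

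**Figure D1:**
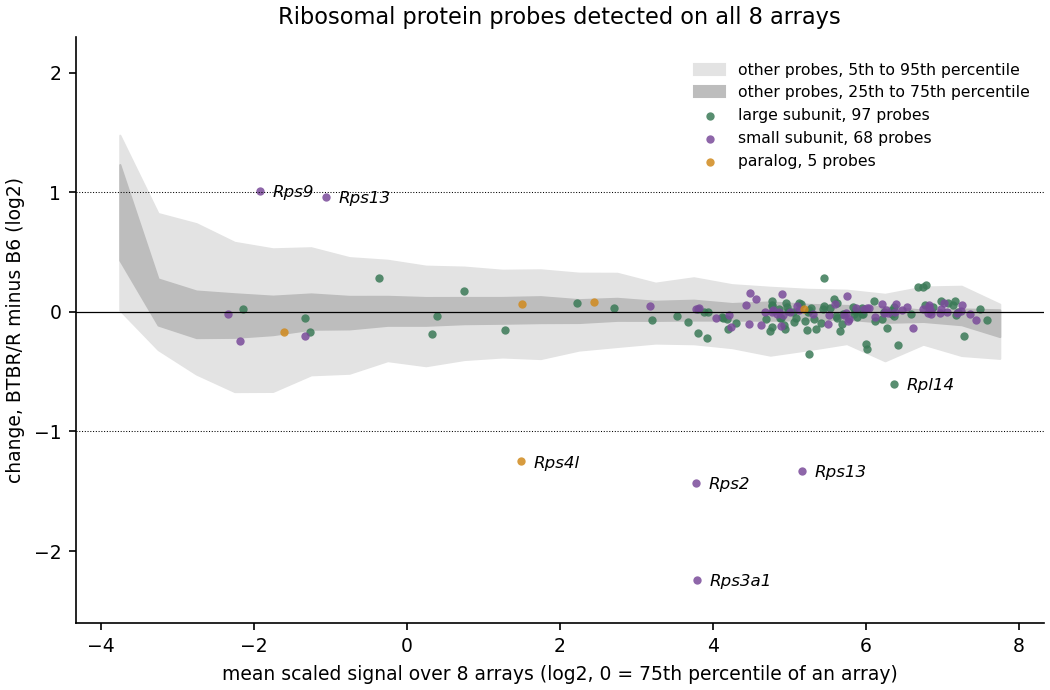
Change between strains (BTBR/R minus B6, log2) against the mean scaled signal over 8 arrays (log2) for the 170 ribosomal protein probes detected on all 8 arrays, colored by subunit. The gray bands hold the middle 50% and 90% of the other detected probes at each signal, dotted lines mark 2-fold, and the labeled probes changed by more than 0.5, while 157 of the 170 changed by less than 0.25.

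**Figure D2:**
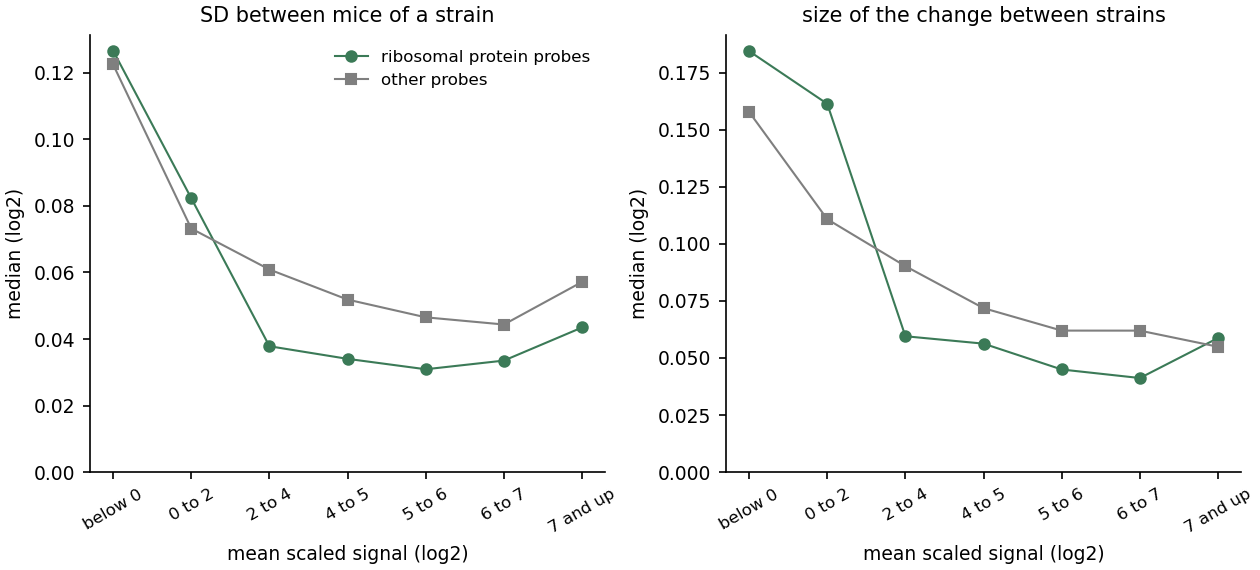
Median SD between mice of a strain (left) and median size of the change between strains (right), both log2, by range of mean scaled signal, for ribosomal protein probes and all other probes detected on all 8 arrays. Both medians of the ribosomal protein probes lie below those of other probes in each range from 2 to 7 (from 5 to 6, 0.031 and 0.047 for the SD), both lie above them in the ranges below 2, and above 7 the SD lies below and the size of the change above.

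For 65 probes, each printed in 10 spots, the spread between spots of 1 array could be set beside the spread between mice. The median SD between the 10 spots was 0.041 and that between mice, each the mean of its spots, was 0.031. The standard error of a mean of 10 spots was 0.013 in the median, below the SD between mice for 65 of 65 probes. Each mouse had its own array, so the SD between mice also holds differences between arrays, which spots of 1 array cannot show. The steadiest of the 170 by pooled SD within strains were probes for Rpl29 (0.012), Rpl10a (0.014), Rpl26 (2 probes, each 0.017) and Rpl28 (0.018). The Rpl29 probe A_55_P2061045 read 5.11, 5.12, 5.12 and 5.14 in B6 and 5.17, 5.20, 5.20 and 5.19 in BTBR/R. The strains did not overlap, yet the change of 0.07 ± 0.04 (SE) was not significant (limma adjusted p = 0.189).

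The level of the whole set depended on how it was summarised. The median scaled signal of the 170 probes was 5.43, 5.39, 5.41 and 5.42 in the 4 B6 mice and 5.31, 5.27, 5.36 and 5.32 in the 4 BTBR/R mice. The strains did not overlap in this median, although the median of the 170 single changes was -0.0054. The mean over the 170 probes was 4.96 ± 0.01 (SD, n = 4) in B6 and 4.92 ± 0.01 (SD, n = 4) in BTBR/R, a difference of -0.04. Scaling on the spike-in probes in place of the 75th percentile raised the change of every probe alike, by 0.11 over all probes detected on all 8 arrays, and turned the median change of the set to 0.11, so that the sign of these small values is set by the scaling.

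Of the 182 probes, 7 were called, 4 lower and 3 higher, which is 3.85% against 22.4% of all probes. That background came mainly from dim probes with higher values in BTBR/R (20.2% of all probes were called higher, 2.27% lower). Among probes detected on all 8 arrays, 5 of 170 were called (2.94%) against a background of 2.2%. By direction these were 4 lower, where 1.16% of all detected probes were called lower, and 1 higher, where 1.04% were called higher. Over both directions and all signals, the share called was therefore near that of all detected probes. It differed with brightness. At a scaled signal of at least 4, 1 of 138 ribosomal protein probes (0.72%) and 0.75% of other probes were called. Between 2 and 4 these were 2 of 16 (12.5%) and 0.97%, between 0 and 2 they were 1 of 6 (16.7%) and 1.68%. Below 0 they were 1 of 10 (10%) and 3.05%, and no difference was tested. With the adjusted p alone, 34 of the 182 probes passed (18.7%), 21 lower and 13 higher, against 39.3% of all probes, 11.6% lower and 27.7% higher. Of the probes detected on all 8 arrays, 30 of the 170 passed (17.6%), 20 of them lower and 10 higher, against 26.9% of all detected probes, 13.9% lower and 13.0% higher. The shares varied with brightness. At a scaled signal of at least 4, 14.5% of 138 ribosomal protein probes and 19.5% of other probes passed. Between 2 and 4 these were 25% of 16 and 24.8%, between 0 and 2 33.3% of 6 and 29.0%, and below 0 40% of 10 and 27.7%. The count among the 170 also depended on the test and the scaling. It was 43 lower and 19 higher with the methods' t-test, 39 and 20 with trended and robust limma, 7 and 21 under spike-in scaling, and 9 and 48 with scaling on the ribosomal protein probes, which was chosen after seeing the data. The other scalings, background corrections and filters on dim probes gave 20 to 33 lower and 7 to 17 higher, and leaving out 1 mouse gave 14 to 16 lower and 4 to 8 higher. The signals of the strains did not overlap for 63 of the 170 probes (37.1%), against 32.6% of all detected probes.

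Of the 4 lower probes, 3 belonged to small subunit genes and 1 to the paralog Rps4l. The largest fall was in 1 of 4 probes for Rps3a1, a small subunit protein at the channel where mRNA leaves the ribosome. Probe A_55_P2722600 read 4.93, 4.87, 4.94 and 4.91 in B6 and 2.75, 2.64, 2.60 and 2.70 in BTBR/R. All BTBR/R mice lay far below all B6 mice, and the change was -2.24 ± 0.05 (SE), a 4.73-fold lower signal (limma adjusted p = 5.36e-07). The 3 other probes for Rps3a1 changed by 0.13 (A_55_P2121846, limma adjusted p = 0.050), -0.0016 (A_55_P2136385, limma adjusted p = 0.982) and -0.06 (A_55_P2911102, limma adjusted p = 0.264). A fall of this size was thus read by 1 of the 4 probes for the gene. The sequences of the strains under this and the other exceptional probes (Rps2, Rps13, Rps4l, Rps9 and Rpl14) were not compared here, so these are changes of a probe's signal, and a change in transcript level was not tested apart from it.

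Rps2, a small subunit protein at the mRNA entry channel, showed the same kind of split. Probe A_55_P2070347 read 4.51, 4.46, 4.50 and 4.54 in B6 and 3.06, 3.07, 3.04 and 3.11 in BTBR/R, a change of -1.43 ± 0.04 (SE, 2.70-fold lower, limma adjusted p = 1.98e-06). The groups did not overlap. Its sister A_55_P2048454, at a similar signal, read 4.51, 4.49, 4.49 and 4.54 in B6 and 4.62, 4.57, 4.63 and 4.64 in BTBR/R, a change of 0.11 ± 0.04 (limma adjusted p = 0.0801). As printed above, the array design places the lower one elsewhere on chromosome 17 than its sister, and whether it measures Rps2 or another copy of the sequence was not settled here. Another Rps2 probe, A_52_P182478, was not well above background on any array, and no fold is given for it.

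For Rps13, a small subunit protein, the probe with 10 spots (A_55_P2146749) read 5.87, 5.80, 5.85 and 5.82 in B6 and 4.54, 4.45, 4.51 and 4.53 in BTBR/R. The strains were apart by -1.33 ± 0.04 (SE, 2.51-fold lower, limma adjusted p = 2.84e-06), many times the spread between mice. The other probe for the gene, A_52_P646112, was dim and pointed the other way. It read -2.03, -1.30, -1.34 and -1.46 in B6 and -0.86, 0.31, -0.88 and -0.86 in BTBR/R, a change of 0.96 ± 0.31 (SE, limma adjusted p = 0.0438) that was below 2-fold, and BTBR/R replicate 2 stood apart. Without that mouse the change was 0.67. The probe named ENSMUST00000117939 shares all 60 positions with the bright Rps13 probe but for A6T, T31C and C58A, given with the Rps13 base first and counted from the 5′ end. Its change was -1.12 ± 0.04 (SE), so the fall was seen on both probes, and which of their transcripts each one measured cannot be told from the signals.

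The last of the lower probes was the single probe for Rps4l, annotated in RefSeq as a transcribed pseudogene of the Rps4x family. It read 2.44, 2.20, 1.75 and 2.08 in B6 and 0.85, 0.70, 1.04 and 0.88 in BTBR/R. The groups did not overlap, and the change was -1.25 ± 0.15 (SE, 2.38-fold lower, limma adjusted p = 0.000355). Rps4x, the X-linked gene for the small subunit protein itself, had 2 bright probes with changes of -0.12 and -0.11 (limma adjusted p = 0.0591 and 0.0659).

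The 1 detected probe called higher belonged to Rps9, a small subunit protein that helps to form the mRNA entry channel. Probe A_52_P564908, designed on the Ensembl transcript ENSMUST00000136858, read -2.28, -2.46, -2.45 and -2.501 in B6 and -1.93, -0.58, -1.76 and -1.37 in BTBR/R. All BTBR/R values were above all B6 values but spread widely, and the change was 1.01 ± 0.28 (SE, 2.02-fold, limma adjusted p = 0.0236). The call was lost in 10 of 21 alternatives. Among them were the fits without BTBR/R replicate 2 (change 0.74) or replicate 4 (0.9996), without B6 replicate 2, 3 or 4 (1.002, 1.003 and 0.988), and those with normexp background correction (0.79), quantile normalization (0.993) or median scaling (0.985). With a floor at the detection limit the change stayed at 1.01 and the limma adjusted p was 0.0836. The bright Rps9 probes changed by 0.16 (A_51_P436928, limma adjusted p = 0.0435) and 0.07 (A_55_P2047571, limma adjusted p = 0.326).

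**Figure D3:**
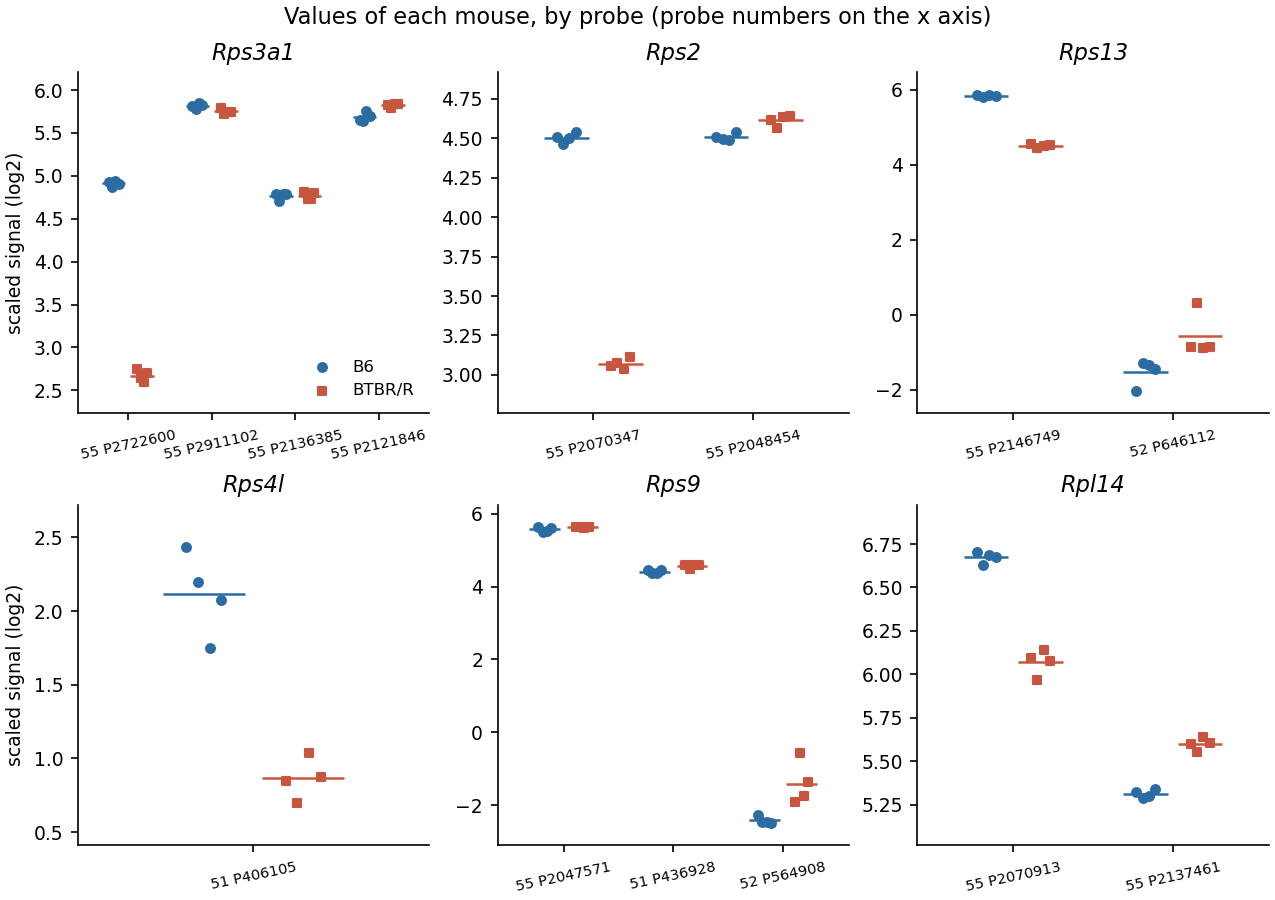
Scaled signal (log2) of each mouse for every probe detected on all 8 arrays of 6 genes with exceptional probes; blue circles are B6, red squares are BTBR/R, bars are means of 4 mice, and each panel has its own axis. In Rps3a1, Rps2 and Rps13 one probe fell by 2.24, 1.43 and 1.33 while its sisters did not, and the 2 Rpl14 probes moved in opposite directions.

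Among large subunit genes no probe was called, and 97 of 99 were detected on all 8 arrays. The largest fall was in Rpl14, whose 2 probes overlap by 51 bases, lie 9 bases apart and moved in opposite directions. Probe A_55_P2070913 (chr9:120483487-120483546, plus strand) read 6.71, 6.63, 6.69 and 6.67 in B6 and 6.09, 5.97, 6.14 and 6.08 in BTBR/R. Probe A_55_P2137461 (chr9:120483496-120483555, plus strand) read 5.33, 5.29, 5.30 and 5.34 in B6 and 5.6, 5.55, 5.64 and 5.6 in BTBR/R. Neither probe had overlapping groups. The first changed by -0.60 ± 0.05 (SE, limma adjusted p = 4.99e-05) and the second by 0.29 ± 0.04 (SE, limma adjusted p = 0.00115). Within the shared bases they differ by G45A, counted from the 5′ end of the first. A 30-base stretch around that base is shown for both, next to the same for 2 pairs that also differ by 1 base. The Rplp1 pair (chr9:61761259-61761318 and chr9:61761276-61761701, minus strand) changed alike, by 0.22 and 0.21, and the Rps3a1 pair (chr3:85941887-85941946 and chr3:85941875-85941934, minus strand) by 0.13 and -0.06.
Rpl14 A_55_P2070913: acacagaataataaaGgttctttttgacgg
Rpl14 A_55_P2137461: acacagaataataaaAgttctttttgacgg
Rplp1 A_55_P2155826: atgtcaacattgggaTcctcatctgcaatg
Rplp1 A_55_P2933544: atgtcaacattgggaGcctcatctgcaatg
Rps3a1 A_55_P2121846: agtccaagaatcagtAtaaaatccagattt
Rps3a1 A_55_P2911102: agtccaagaatcagtGtaaaatccagattt

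In 4 of 57 genes with at least 2 detected probes, every probe was lower with an adjusted p below 0.05, and each change was below 2-fold. Over all 6508 genes with at least 2 detected probes, 4.32% did the same. Both probes for Rpl21 fell, by 0.31 and 0.35 on the log2 scale (limma adjusted p = 0.000819 and 0.000313). The Rpl21 probe A_55_P2082779 read 5.45, 5.40, 5.43 and 5.43 in B6 and 5.11, 5.03, 5.09 and 5.07 in BTBR/R, without overlap. It overlaps probes named ENSMUST00000160079 and ENSMUST00000120315, which changed by -0.35 and -0.44. The other Rpl21 probe overlaps probes named TC1708101 and BY465839, with changes of -0.37 and -0.23. The design places these probes on other chromosomes than Rpl21, and which transcripts were measured cannot be told from the signals. All 3 probes for Rpl3, a protein close to the catalytic center of the ribosome, fell, with changes of -0.27, -0.27 and -0.22 (limma adjusted p = 0.00147 to 0.0159). All 3 probes for Rpl28 (-0.16 to -0.14) and both for Rpl24 (-0.16 and -0.14), which forms a bridge to the small subunit, were also lower. No gene had every probe higher by the same measure. That count is given for the main scaling only, and its share over all genes was not taken. All of these changes are relative to the 75th percentile, and spike-in scaling moves each of them up by 0.11. Under it Rpl21 alone still had every probe lower with an adjusted p below 0.05. Leaving out 1 mouse kept Rpl21 and Rpl3 in every case, and lost Rpl24, Rpl28 or both.

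**Figure D4:**
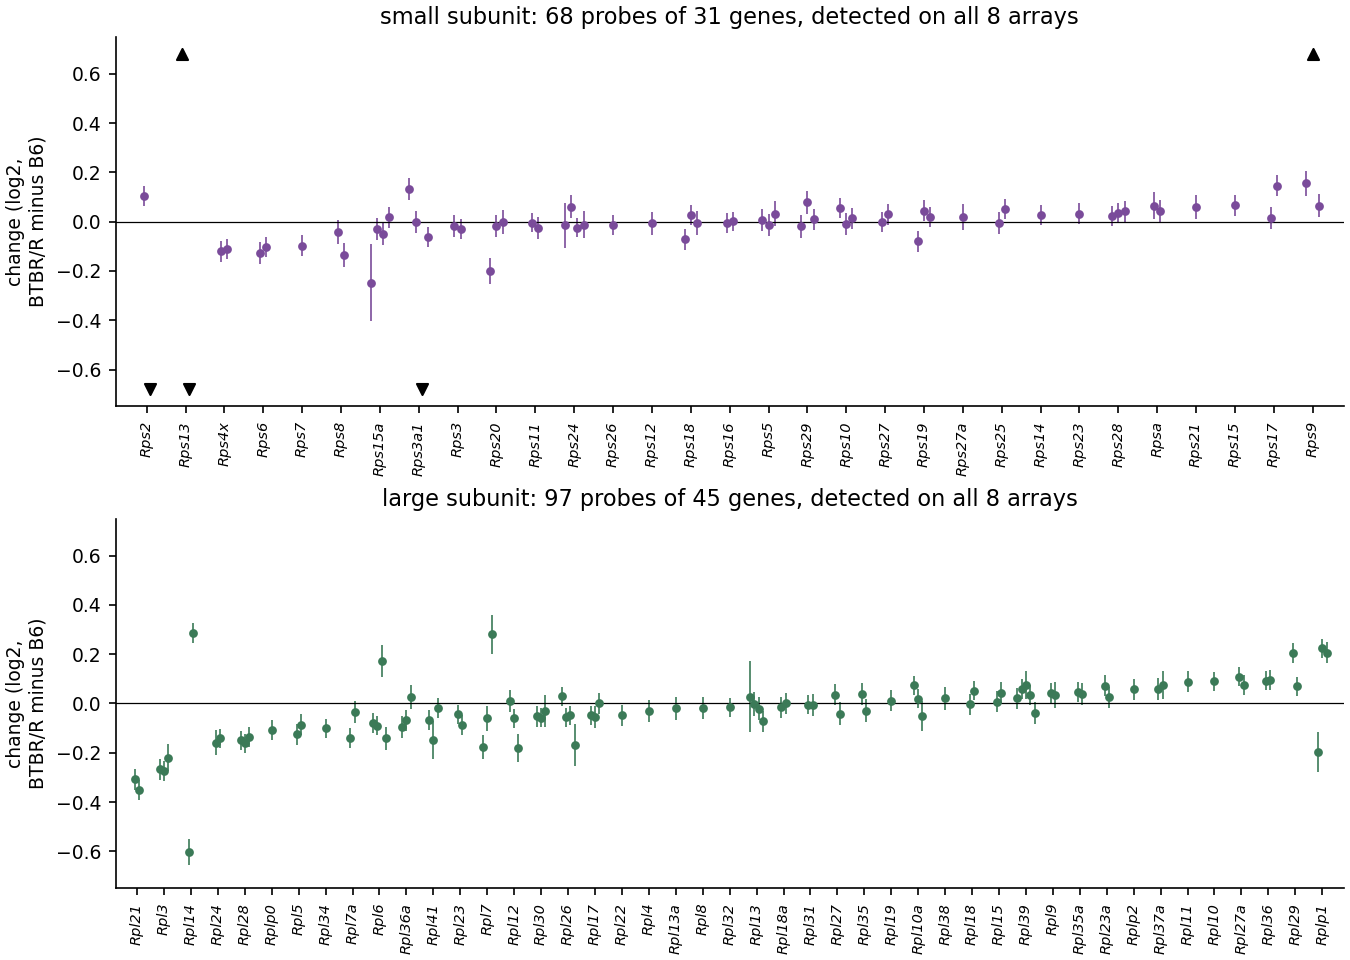
Change between strains (log2, BTBR/R minus B6) of every probe detected on all 8 arrays, grouped by gene and ordered by the gene's median, for small subunit genes (top) and large subunit genes (bottom). Bars are standard errors from the limma fit, and black triangles at the edge mark 5 probes with changes beyond 0.7, all in Rps2, Rps13, Rps3a1 and Rps9.

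Probes for 1 gene mostly gave like values. Of 57 genes with at least 2 probes detected on all 8 arrays, 36 had all changes within a range of 0.1 and 48 within 0.25. The range reached 0.5 in 5 genes, which were Rps3a1 (2.37), Rps13 (2.29), Rps2 (1.54), Rps9 (0.95) and Rpl14 (0.89). In 4 of the 57 genes, Rps3a1, Rps13, Rpl14 and Rpl7, some probes passed an adjusted p of 0.05 in 1 direction and some in the other, against 3.86% of all 6508 such genes. Rps3a1 counted by a probe at an adjusted p of 0.050 and Rps13 by its dim probe (limma). For Rpl7 these were A_55_P2126470 at -0.18 (limma adjusted p = 0.0240) and the dim A_66_P120023 at 0.28 (limma adjusted p = 0.0248). By subunit, the median change was -0.0021 over 68 detected small subunit probes, with 4 called, and -0.019 over 97 large subunit probes, with 0 called by limma, where 2.2% of all detected probes were called. The difference between the subunits was not tested. With the adjusted p alone, 9 of the 68 small subunit probes passed (13.2%), 4 lower and 5 higher, and 20 of the 97 large subunit probes (20.6%), 15 lower and 5 higher, against the 26.9% of all detected probes given above.

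The stalk, which recruits elongation factors, had 5 detected probes, of which 2 overlapping ones for Rplp1 passed an adjusted p of 0.05. Of all detected probes, 26.9% passed. Rplp0, the base of the stalk, gave -0.11 ± 0.04 (SE, limma adjusted p = 0.0727) and Rplp2 0.06 ± 0.04 (limma adjusted p = 0.335). Of 3 Rplp1 probes, A_55_P2155826 read 6.69, 6.66, 6.68 and 6.66 in B6 and 6.90, 6.93, 6.88 and 6.88 in BTBR/R, a change of 0.22 ± 0.04 (SE, limma adjusted p = 0.00274), and A_55_P2933544 rose by 0.21 (limma adjusted p = 0.00661). The remaining one, A_55_P1995126, gave -0.20 ± 0.08 (limma adjusted p = 0.0924). Rpsa, a small subunit protein also known as a laminin receptor, had 2 probes with changes of 0.07 and 0.04 (limma adjusted p = 0.383 and 0.483).

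Genes with a known role in disease or signaling had small changes. Rps6, the small subunit protein phosphorylated by S6 kinases downstream of mTOR, gave -0.13 and -0.10 in 2 probes with 10 spots each (limma adjusted p = 0.0503 and 0.0916). Rps19, Rps26, Rpl5 and Rpl11 are mutated in Diamond-Blackfan anemia, and Rpl5 and Rpl11 also bind Mdm2. Rps26 changed by -0.01, the 2 Rpl5 probes by -0.13 and -0.09, the detected Rpl11 probe by 0.09, and the 3 detected Rps19 probes by -0.08, 0.04 and 0.02. None of these passed an adjusted p of 0.05.

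Of 8 probes for 7 paralogs outside the standard ribosome, 5 for 4 genes were detected on all 8 arrays. Their median scaled signal was 1.51, against 5.33 for the 170 detected ribosomal protein probes. Rpl3l, known from striated muscle, was above background on 1 array of each strain, and Rpl10l and Rpl39l, known from testis, on none, so that no fold is given for them. The Rpl22l1 probe was bright, at 5.18 ± 0.03 (SD, n = 4) in B6 and 5.21 ± 0.05 in BTBR/R. It shares 58 bases, with 1 mismatch, with a probe named Gm15421 that read 4.92 in B6 and 4.91 in BTBR/R. Which of their transcripts it measured cannot be told from the signals. The probe for the partner Rpl22 stood at 4.16 ± 0.03 and 4.11 ± 0.04, and the levels of these probes do not rank the genes. Rps27l had 2 probes with changes of 0.08 and 0.07 and Rpl7l1 1 probe with -0.17 (limma adjusted p = 0.112). The partners Rps27 and Rpl10 changed by -0.0016 and 0.03 (2 probes) and by 0.09, and the 5 Rpl39 probes by between -0.04 and 0.08.

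The 12 probes that were not detected on all 8 arrays covered 12 genes. Probes for Rps12, Rps27a, Rps4x and Rps9 were above background on 4 B6 arrays and 0 BTBR/R arrays, and probes for Rps19 and Rps29 on 3 and 0. The limit of detection was higher in BTBR/R, and the mean B6 signal of these 6 probes (-4.94 to -3.75) was not above the mean of the BTBR/R limits (-3.97 to -3.55), so that no fold is given. The only probe for Rpl37 was detected on 4 and 3 arrays. A further probe for Rpl11 was never above background. The calls of Rpl39l and of the dim Rps2 probe were made between values below background in both strains.

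Many ribosomal protein genes have retrotransposed copies, so near-identical probes were sought on the array. Among probes detected on all 8 arrays, 84 pairs of a ribosomal protein probe with another probe overlapped by at least 25 bases with at most 4 mismatches, and they covered 57 ribosomal protein probes and 42 genes. In 73 pairs the changes differed by less than 0.1, with a median difference of 0.03. The difference reached 0.25 in 2 pairs, of which 1 was the Rpl14 pair. In the other, the Rplp1 probe A_55_P1995126 (-0.20) shared 29 bases, with 4 mismatches, with the probe named LOC102637947 at chr4:145059594-145059653, whose signal was 5.19 ± 0.02 (SD, n = 4) in B6 and 6.51 ± 0.08 in BTBR/R (change 1.31 ± 0.05, SE, limma adjusted p = 7.04e-06). Overlapping probes share target bases, so these pairs are no independent readings. The design placed 7 probes on another chromosome than the RefSeq gene, namely 3 for Rps29, 2 for Rps27 and 1 each for Rpl13 and Rpl36, and their changes lay between -0.07 and 0.09.

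**Figure D5:**
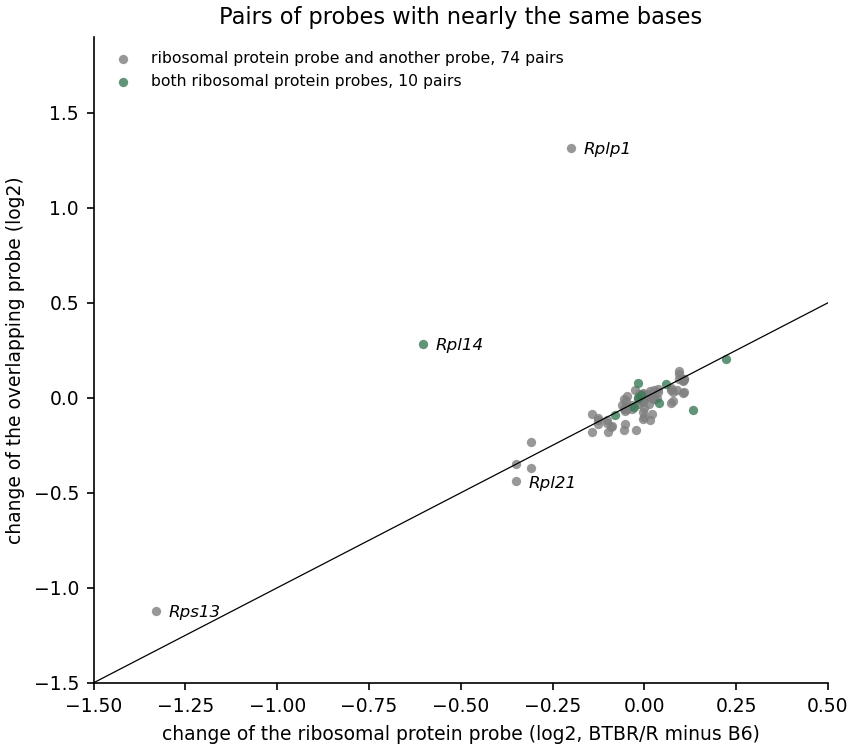
Change (log2, BTBR/R minus B6) of a ribosomal protein probe against that of a probe that shares at least 25 bases with at most 4 mismatches, for 84 pairs detected on all 8 arrays, with the line of equal change. Points lie near the line for Rps13 (-1.33 and -1.12) and Rpl21, and the Rpl14 pair (-0.60 and 0.29) and an Rplp1 pair (-0.20 and 1.31) lie far from it.

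Other lists of the translation machinery were described in the same way, by probes detected on all 8 arrays. Of 109 probes for mitochondrial ribosomal proteins, 1 was called higher, the median size of the change was 0.067 and 16.5% had an adjusted p below 0.05. Among 18 probes for elongation factors none was called, the median size was 0.038 and 11.1% passed the adjusted p (2 lower, 0 higher). Among 90 for initiation factors 1 was called lower, the median size was 0.074 and 21.1% passed the adjusted p. Ribosome biogenesis genes (60 probes, median size 0.065, 16.7% past the adjusted p) had none called. A list for control of ribosomal protein synthesis, of mTOR pathway genes and Myc, also had none called (20 probes, median size 0.115, 25% past the adjusted p). Changes in it ran from -0.56 (Eif4ebp1, limma adjusted p = 0.00233) to 1.05 ± 0.67 (SE) for a dim Rptor probe (limma adjusted p = 0.259). The other Rptor probes detected on all 8 arrays changed by -0.05 and -0.02. For all 28547 detected probes the median size was 0.12 and 26.9% passed.

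The letters around the start sites, which the rule did not use, were counted without a test. RefSeq windows from 250 bases before to 50 after a gene start (GRCm38.p6) were found for 63 of the 84 genes (75 windows). The letters CGGAAG occurred on either strand in 45 of the 75 and in 16.9% of all 32851 windows. CTTTCC occurred in 49.3% and 26.6%, and TATAAA in 9.33% and 13.6%. A first base of C followed by 4 pyrimidines, as in the tract named above, stood at the annotated start in 17.3% and in 2.51%. The windows are annotated starts and do not bear on the change between strains. As examples chosen from the 13 windows with that start, which most windows lack, stretches of 30 bases from 10 before the start are shown for Rpl28 (chr7:4792955-4792984, plus strand), Rpl35 (chr2:39005112-39005141, minus strand) and Rps6 (chr4:86857348-86857377, minus strand), with the first 5 transcribed bases in capitals.
Rpl28: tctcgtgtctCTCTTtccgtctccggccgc
Rpl35: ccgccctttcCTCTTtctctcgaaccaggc
Rps6: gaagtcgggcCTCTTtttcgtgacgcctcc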

How the data were processed

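RNA of cortex plus striatum from 4 B6 and 4 BTBR/R males was measured on 1-color Agilent arrays. The authors extracted spot intensities with Agilent Feature Extraction 10.7.3.1 (per the submitters' processing notes), which subtracts the background, and deposited 1 scanner file for each mouse. They also deposited normalized log2 values, which equal log2 of the processed signal minus a constant for each array (at least 99.97% of values within 0.01) and served as an alternative. The probe positions in the scanner files are on mm9. Groups came from the sample titles, and nothing states that mice of 1 strain came from separate litters.

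From the processed signals, spots marked as outliers were left out, spots of a probe were averaged on the log2 scale, and the 75th percentile over 56605 non-control probes was subtracted. A probe was detected on an array when over 50% of its spots were well above background. All probes were fitted with limma 3.58.1 in R 4.3.3, and p-values were adjusted over all of them (Benjamini-Hochberg). In place of this test the study's methods use a t-test on each probe, run as an alternative. The procedure was tested on simulated data. Named probes were those called and detected on every array of a strain with their sister probes, the 5 largest rises and falls among probes detected on all 8 arrays, the 5 smallest SDs, stalk proteins, Rpsa, paralogs with partners, and disease genes. The brightest, dimmest and undetected probes, genes with every probe lower, and overlapping or off-chromosome probes were named after their values were seen. The members, lists and tests were chosen with earlier results of these data known. RefSeq names and start windows were on GRCm38.p6. The number of arrays limits the precision.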

Additional observations from a re-analysis of the deposited data

Results flagged for a closer look

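Within the 22 groups of 4 mice that were examined for a value far from the others (the set median and 10 named probes, in each strain), 1 such value was found, and chance gives about 1 in 20. For the dim Rps13 probe A_52_P646112, BTBR/R replicate 2 read 0.31, while the other 3 BTBR/R mice read -0.88 to -0.86. The same mouse had the highest value of its strain on the dim Rps9 probe A_52_P564908 (-0.58), whose change was 0.74 without it. The cause was not tested.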

How the results depend on the processing

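The 4 lower calls (Rps3a1, Rps2, Rps13 and Rps4l) were made in all 21 alternatives. The count called higher, 3, was 0 with normexp background correction, quantile normalization or a floor at the highest detection limit, 1 when probes detected on every array of a strain or on all 8 arrays were fitted, 5 with spike-in scaling and 5 with scaling on the ribosomal protein probes, an alternative chosen after seeing the data. The median change of the detected probes was 0.11 with spike-in scaling and 0.092 with scaling on the ribosomal protein probes. The replicate numbers do not pair the mice (correlations of -0.070 to 0.16), and with the replicate block the counts were 4 lower and 2 higher, Rps9 being lost (adjusted p = 0.0587), 10 lower and 5 higher detected probes had an adjusted p below 0.05, and Rpl21 and Rpl3 were the genes with every probe lower. Leaving out each mouse gave 4 to 5 lower, 1 to 4 higher (1 without B6 replicate 4 or BTBR/R replicate 4), 4 to 5 detected and called, and a median change of -0.015 to 0.0021. The value of the Rps2 probe A_52_P182478, below background on all arrays and given only for its sign, turned to -0.061 with normexp and -0.038 with quantile normalization. The cause was not tested.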
